A study of Mus musculus with 10 samples.

Results

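The genes described here are 40 mouse genes named for their work in germ cells and meiosis, followed across E14 mouse embryonic stem (ES) cells in 3 culture conditions. The symbols were listed by name, and a gene was kept when its reads summed to at least 10 over the 10 libraries. Of the 40 genes, 36 were kept, among 31053 genes in the count tables, and 27 had enough reads to be tested, among 11215 genes tested in all. The 4 genes not kept were Tdrd6 (7 reads in all), Tdrd7 (6), Tdrd9 (4) and Asz1 (3).

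E14 is a line derived from the mouse blastocyst, and every library came from E14 cells carrying a stable DOX-inducible Esrrb construct, controls included. Esrrb encodes a nuclear receptor of naive ES cells, and DOX (doxycycline) is the drug that switches such constructs on. The 4 libraries of the 2iL group came from cells kept without DOX in N2B27 medium with the GSK3 inhibitor CHIR99021, the MEK inhibitor PD0325901 and LIF. The other groups had the 2iL additions taken away for 96 h, without DOX in 3 libraries and with DOX in 3. The titles place the libraries in 2 experiments: 2iL exp1_1, exp1_2, exp2_1 and exp2_2, no DOX exp1_1, exp1_2 and exp2_2, and DOX exp1_1, exp1_2 and exp2_1. Nothing in the labels says whether the cells were 1 clone, what promoter drove the construct, or whether libraries of a group came from separate cultures, so the tests measure only the spread between these libraries.

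Germ cells use proteins that most other cells do without: RNA-binding proteins that control translation, the Piwi and tudor proteins that use small piRNAs to silence transposons, and the proteins of the meiotic chromosome axis on which homologous chromosomes pair. In cells outside the germ line many of these genes are kept silent by DNA methylation of CpG-rich promoters and by the complex PRC1.6, in which MGA and MAX read the E-box CACGTG and E2F6 reads a TCCCGC-like sequence. Naive ES cells in 2iL have little DNA methylation, and cells leaving this state gain it through DNMT3A and DNMT3B.

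The libraries held 1253620 to 4715450 reads in genes, with 12659 to 14723 genes detected and 25 to 38 of the 40 listed genes. The listed genes summed to 463 to 747 CPM (reads scaled to a library's total of reads in genes) in a library, and to 260.0 to 365 CPM without Tex19.1, so 1 gene carried a large part of the signal. The levels of single genes that follow are CPM scaled by TMM (an edgeR factor for library composition), the errors on means are SD over libraries, and the reads come from transcript 3′ ends, so levels are not compared between genes. Markers of ES cells (7 genes) summed to 2074 to 2240 CPM in 2iL, 291 to 349 without DOX and 649 to 727 in libraries labelled DOX. The sum does not describe each gene. Tfcp2l1, its largest part in 2iL, had means of 916 CPM there, 30.3 without DOX and 97.2 with DOX. Pou5f1 had means of 42.5, 45.9 and 36.3 CPM and passed in neither comparison with 2iL. Sox2 had means of 337, 168 and 301 CPM, and with DOX against 2iL it did not pass (edgeR adjusted p = 0.699). Reads in Esrrb itself were 314 ± 62.5 CPM in 2iL (n = 4), 23.1 ± 9.21 without DOX (n = 3) and 18.1 ± 7.70 with DOX (n = 3). They were thus not higher in libraries labelled DOX than without DOX, and the sources used here do not say whether reads of the construct's transcript would be counted in Esrrb, so these reads do not check the label. DOX exp1_2, the library with the fewest reads, stood apart: its fibroblast markers (6 genes) summed to 2081 CPM against 0.605 to 19.3 in the other libraries, its macrophage markers (5 genes) to 63.8 against 8.33 to 30.8. Markers of extraembryonic endoderm (6 genes) summed to 116 to 245 CPM in libraries labelled DOX, and to 1.08 to 7.21 in all others. The 2-cell-like markers (5 genes, Gm4340 at 0) were low, at 0 to 2.12 CPM in 2iL and 0 to 0.424 without DOX. They summed to 2.88 to 11.6 in libraries labelled DOX, the highest in DOX exp2_1. The part of these differences in the results with DOX was not tested, and results that rest on DOX exp1_2 are given without it as well.

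Markers of germ cells and gonads were looked at in the same libraries. Of 6 spermatid markers, Prm1, Prm2, Acrv1 and Spaca1 had no read in any library, and the sum of the 6 reached at most 2.08 CPM. Of 6 oocyte markers, Zp2 and Oosp1 had no read, and the sums were 6.69 to 13.0 CPM in 2iL, 2.33 to 4.16 without DOX and 2.88 to 3.99 with DOX. Most oocyte marker reads were in Zp3 (121 in 2iL, 27 without DOX and 24 with DOX). Markers of gonadal soma (6 genes, Amh at 0) summed to 1.82 to 3.35 CPM in 2iL, 0.594 to 9.12 without DOX and 3.19 to 8.97 with DOX. Cyp17a1 had reads only in libraries labelled DOX (7, 3 and 8), while Dhh had none there. Markers of primordial germ cells (6 genes, none at 0, several of them also active in naive ES cells) summed to 163 to 226 CPM in 2iL, 36.9 to 60.6 without DOX and 34.3 to 64.4 with DOX. Reads from whole cultures do not tell fewer cells of a type from less RNA per cell.

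Promoters are shown for up to 3 called genes in each direction without DOX against 2iL, those with the largest change, and for the 1 gene called with DOX against no DOX, so that windows with and without the motifs can be compared. RefSeq promoter windows (250 bases before to 50 after the start, GRCm38.p6, the most upstream start of each gene) were found for 34 of the 40 genes. Both strands were searched for the E-box CACGTG and for TCCCGC, called E2F-like here. In the lines that follow capitals mark the matches, and a match on the other strand reads GCGGGA. The first 3 genes, Tdrd1 (chr19:56825959-56826258, + strand), Ybx2 (chr11:69935649-69935948, + strand) and Mael (chr1:166238695-166238994, - strand), rose after 2iL was taken away. The next 3, Nanos3 (chr8:84176503-84176802, - strand), Dazl (chr17:50293571-50293870, - strand) and Tex19.1 (chr11:121145893-121146192, + strand), fell. Tdrd12 (chr7:35537695-35537994, - strand) was lower in libraries labelled DOX.
Tdrd1: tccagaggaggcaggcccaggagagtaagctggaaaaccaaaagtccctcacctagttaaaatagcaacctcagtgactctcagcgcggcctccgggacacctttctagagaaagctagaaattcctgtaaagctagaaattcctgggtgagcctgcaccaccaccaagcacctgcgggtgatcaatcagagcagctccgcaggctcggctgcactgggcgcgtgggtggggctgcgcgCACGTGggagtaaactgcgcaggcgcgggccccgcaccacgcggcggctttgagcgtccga
Ybx2: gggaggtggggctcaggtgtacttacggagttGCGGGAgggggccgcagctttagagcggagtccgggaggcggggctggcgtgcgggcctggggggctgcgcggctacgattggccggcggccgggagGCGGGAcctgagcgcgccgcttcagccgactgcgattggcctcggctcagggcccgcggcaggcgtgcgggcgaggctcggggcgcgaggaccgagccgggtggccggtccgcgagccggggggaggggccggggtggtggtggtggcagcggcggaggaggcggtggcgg
Mael: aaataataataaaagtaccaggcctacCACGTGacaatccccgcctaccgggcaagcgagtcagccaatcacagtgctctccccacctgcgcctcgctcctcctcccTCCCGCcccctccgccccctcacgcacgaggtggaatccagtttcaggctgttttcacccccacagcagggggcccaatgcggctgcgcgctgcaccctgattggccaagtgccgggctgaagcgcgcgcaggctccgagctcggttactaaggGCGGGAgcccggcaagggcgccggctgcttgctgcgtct
Nanos3: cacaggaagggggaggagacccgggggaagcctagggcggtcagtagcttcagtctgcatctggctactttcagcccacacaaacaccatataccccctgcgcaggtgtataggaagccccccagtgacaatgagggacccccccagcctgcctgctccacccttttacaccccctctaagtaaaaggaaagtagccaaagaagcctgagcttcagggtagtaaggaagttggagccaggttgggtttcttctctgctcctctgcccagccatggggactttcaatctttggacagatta
Dazl: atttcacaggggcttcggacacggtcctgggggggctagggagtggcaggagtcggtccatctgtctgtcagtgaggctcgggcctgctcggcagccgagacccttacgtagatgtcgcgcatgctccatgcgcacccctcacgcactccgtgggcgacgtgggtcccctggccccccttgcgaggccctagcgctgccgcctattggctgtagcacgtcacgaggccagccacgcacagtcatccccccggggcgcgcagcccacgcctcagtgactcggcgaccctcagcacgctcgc
Tex19.1: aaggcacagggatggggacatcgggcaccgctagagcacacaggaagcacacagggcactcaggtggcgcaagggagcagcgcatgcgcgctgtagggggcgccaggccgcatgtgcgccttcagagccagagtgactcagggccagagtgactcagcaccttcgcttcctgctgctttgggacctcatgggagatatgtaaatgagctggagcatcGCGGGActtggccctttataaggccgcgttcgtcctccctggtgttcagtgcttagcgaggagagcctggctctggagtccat
Tdrd12: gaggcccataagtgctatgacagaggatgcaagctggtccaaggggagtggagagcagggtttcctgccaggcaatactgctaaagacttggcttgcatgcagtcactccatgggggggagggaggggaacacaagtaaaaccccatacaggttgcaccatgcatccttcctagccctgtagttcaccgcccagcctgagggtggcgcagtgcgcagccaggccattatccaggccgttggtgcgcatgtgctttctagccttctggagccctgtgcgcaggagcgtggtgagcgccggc

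The Tdrd1 window had 1 E-box and 20 CpG dinucleotides, the Ybx2 window 2 E2F-like matches and 40 CpG, and the Mael window 1 E-box, 2 E2F-like matches and 24 CpG. The Nanos3 window had neither motif and 3 CpG, the fewest of the 34, while the Dazl window had neither motif and 28 CpG. The RefSeq window of Nanos3 lies inside the gene's GENCODE span (chr8:84173731-84185217, - strand), not at its upstream end. Its letters may thus not describe the start of that span. The Tex19.1 window had 1 E2F-like match and 16 CpG, and the Tdrd12 window neither motif and 9 CpG. No match of one motif overlapped a match of the other in these 34 windows.

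An E-box lay in 13 of the 34 windows (38.2%), against 7.24% of 27025 gene windows in the RefSeq table and 10.7% of the 8829 windows of genes tested. The E2F-like letters lay in 15 (44.1%), against 20.1% of all windows and 38.2% of those of tested genes. Both lay in 7 (20.6%), against 2.05% and 4.22%. The median CpG count was 19.5 in the 34 windows, 7 in all windows and 22 in those of tested genes. Of the 8 genes that rose after 2iL was taken away, 5 had an E-box and 5 an E2F-like match. Of the 3 that fell, none had an E-box and 1 had an E2F-like match, and of the 13 tested genes with a window that did neither, 3 had an E-box and 6 an E2F-like match. These shares are a description of letters and carry no test.

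**Figure D1:**
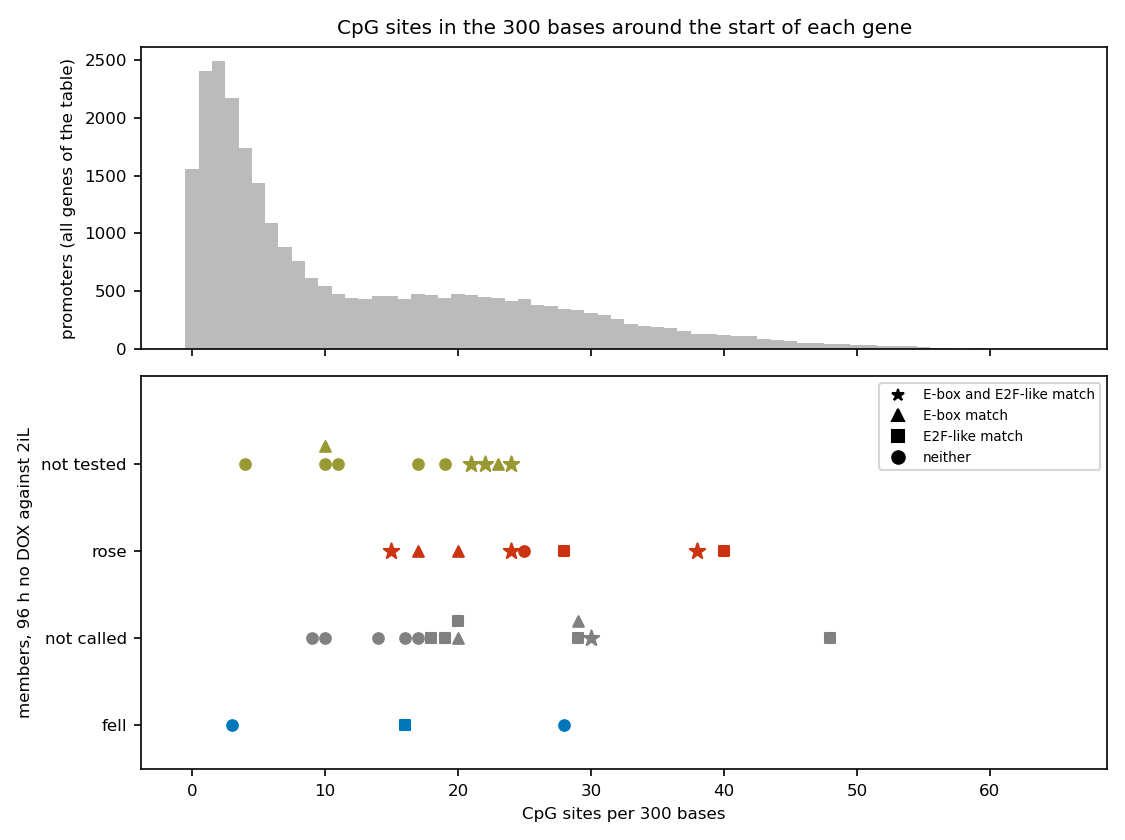
The x axis is the number of CpG dinucleotides in the 300-base promoter window; the upper panel counts the windows of all genes of the RefSeq table, and the lower panel shows 1 point per listed gene, in rows by its change without DOX against 2iL and with a symbol for the motifs found. The 34 listed genes run from 3 to 48 CpG, and none of the 3 that fell has an E-box.

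Taking 2iL away for 96 h moved the listed genes in both directions. Without DOX, 8 of the 27 tested genes rose against 2iL and 3 fell (edgeR quasi-likelihood test, Benjamini-Hochberg adjusted p under 0.05), where 11.5% of all 11215 tested genes rose and 8.9% fell, 20.4% in all. The risers were Tdrd1, Ybx2, Mael, Meioc, Tdrkh, Sycp3, Taf7l and Ddx4, and the genes that fell were Nanos3, Dazl and Tex19.1. The median log2 fold change of the 27 was -0.07, beside 0.00 over all tested genes. A count over tested genes leaves out members with few reads. All 8 risers passed that filter only through the groups at 96 h, in which they were high. Over the 2iL libraries Tdrd1, Ybx2 and Mael had 2, 1 and 2 reads. Tdrkh, Meioc, Taf7l, Ddx4 and Sycp3 had 6, 10, 12, 22 and 27 there. The 8 could thus hardly have been called in the other direction. The same holds for Nanos3, which entered through 2iL (106 reads there, 7 without DOX and 0 with DOX). The count of risers beside the share of all genes therefore carries no test. With every gene of at least 10 reads in the fit, 9 of 36 rose and 3 fell, beside 9.18% and 6.89% of 14581 genes (16.1% in all). The median log2 fold change of these 36 was 0.65, beside 0.02 over all genes of that fit, with 19 higher and 17 lower.

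With libraries labelled DOX against 2iL, 7 of the 27 rose and 4 fell, beside 9.84% and 6.83% of all genes tested (16.7% in all). The 7 were the risers named above other than Tdrkh, and those that fell were Nanos3, Dazl, Tdrd12 and Syce2. These 7 risers too entered the test only through the groups at 96 h. This comparison and the one without DOX share the 2iL libraries, so their likeness is not independent. Between the groups at 96 h, none of the 27 rose with DOX and 1, Tdrd12, fell, beside 2.16% and 0.945% of all genes (3.1% in all). At an unadjusted p under 0.05, 3 of the 27 differed between those groups, as did 1685 of all 11215 tested genes, so the listed genes were near that background. DESeq2 called 1 riser, Stra8, where 3.36% of all genes rose in its fit. With every gene of at least 10 reads in the fit, 8 of the 36 kept genes rose and 4 fell with DOX against 2iL (7.98% and 5.28% of all genes, 13.3% in all), and 0 rose and 1 fell with DOX against no DOX (1.66% and 0.727%, 2.39% in all). In all, 14 tested genes passed in none of the 3 comparisons.

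**Figure D2:**
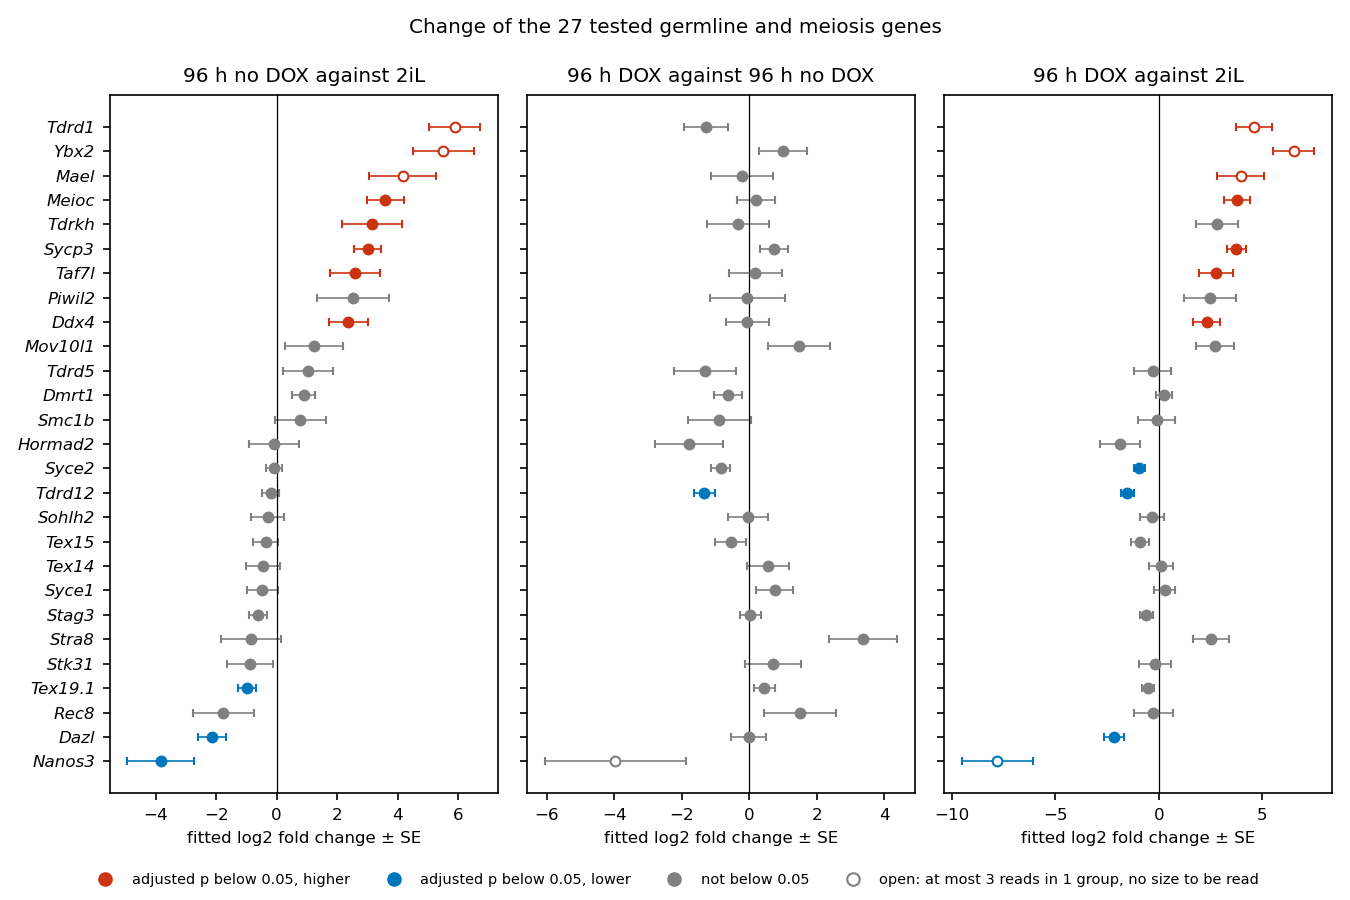
The x axes give the fitted log2 fold change ± SE of the 27 tested genes (rows, ordered by the first panel) in the 3 comparisons; red and blue mark an edgeR adjusted p below 0.05, and open points have at most 3 reads in 1 group, so that their size is not to be read. The 8 genes that rose without DOX lie right of 0 in both comparisons with 2iL, and Tdrd12 alone is coloured with DOX against no DOX.

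Among the 6 RNA-binding and translation genes, 2 rose and 2 fell without DOX against 2iL; of all tested genes 11.5% rose and 8.9% fell, and the shares of so few genes, here and in the other roles, were not tested against these. Dazl (ENSMUSG00000010592, chr17:50279395-50293636) encodes an RNA-binding protein that promotes translation in germ cells. Its levels were 11.6, 17.8, 24.8 and 16.2 CPM in 2iL, 4.39, 4.51 and 2.93 without DOX, and 5.21, 4.37 and 2.14 in libraries labelled DOX. Every 2iL library lay above all 6 libraries at 96 h. Dazl fell by 2.14 ± 0.47 (SE) on the log2 scale without DOX (edgeR adjusted p = 0.00216), a level 4.42-fold lower, and by 2.16 ± 0.49 with DOX (adjusted p = 0.00366). DOX against no DOX differed by -0.02 with a 95% interval of -1.10 to 1.06, which is too wide to show that the levels were alike.

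Ddx4 (ENSMUSG00000021758, chr13:112598333-112652475), the germ cell RNA helicase also called Vasa, went the other way. It had 1.33, 4.38, 0.612 and 0.368 CPM in 2iL, 8.78, 10.1 and 8.20 without DOX, and 11.4, 6.56 and 7.65 with DOX. Every 2iL library lay below all 6 libraries at 96 h, whose groups overlapped, though 2iL exp1_2 was well above the other 2iL libraries. Ddx4 rose by a log2 fold change of 2.37 ± 0.64 without DOX (edgeR adjusted p = 0.0104) and 2.31 ± 0.65 with DOX (adjusted p = 0.0168). The call with DOX was lost without 2iL exp2_1 or DOX exp1_1. The 95% interval of DOX against no DOX was -1.37 to 1.26.

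Ybx2 (ENSMUSG00000018554, chr11:69935796-69941605), which encodes a protein that binds and stores mRNA in germ cells, was nearly silent in 2iL: 0.292 CPM in exp1_2, from 1 read, and no read in the other 3 libraries. Without DOX it had 1.17, 6.66 and 8.20 CPM, and with DOX 8.05, 16.8 and 8.26. By reads, the level without DOX was 70.6 times that in 2iL (63 reads against 1, 95% counting interval 12.2 to 2833), with an edgeR adjusted p of 0.000478. With DOX the ratio was 129 (84 reads against 1, 22.6 to 5165, adjusted p = 0.000107). Such intervals pool the reads of a group, so they cover counting error only and leave out the spread between libraries. Nothing says that reads were reduced to single molecules, so even the counting error may be larger.

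Nanos3 (ENSMUSG00000056155, chr8:84173731-84185217), an RNA-binding protein needed for primordial germ cells to survive, was higher in the exp2 libraries of 2iL: 2.66 and 3.21 CPM in exp1, 19.0 and 9.21 in exp2. Without DOX only exp1_2 had reads (1.50 CPM), and with DOX there was no read in any library, which allows up to 0.356 CPM for the group. Nanos3 fell by 3.84 ± 1.09 on the log2 scale without DOX (edgeR adjusted p = 0.0164). With the experiment as a replicate block this missed the threshold (adjusted p = 0.0701), as it did without no DOX exp1_1 or without no DOX exp2_2. With DOX it was at least 23.0-fold lower than in 2iL (106 reads against 0, with the group's floor of 3 reads; adjusted p = 0.00389). Tex14, a protein of the bridges between dividing germ cells, and Stk31, a germ cell kinase-like protein, passed in no comparison; Tex14 ran from 2.93 to 9.47 CPM and Stk31 from 0 to 8.75 over the 10 libraries.

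Of the 14 piRNA pathway and tudor genes, 10 were kept and 9 tested, of which 3 rose and 1 fell without DOX. Tdrd1 (ENSMUSG00000025081, chr19:56826209-56870012), a tudor protein that docks Piwi proteins, had 0.612 CPM in 2iL exp2_1, from 2 reads, and none in the other 2iL libraries. It had 9.95, 15.5 and 9.66 CPM without DOX, and 5.92, 4.37 and 3.98 with DOX. The 3 groups were fully apart, with the group labelled DOX in between. By reads the level without DOX was 77.9 times that in 2iL (139 reads against 2, interval 21.2 to 650; edgeR adjusted p = 2.5e-05), and with DOX 33.8 times (44 against 2, 8.83 to 288, adjusted p = 0.00085). DOX against no DOX gave a log2 fold change of -1.28 ± 0.65 (interval -2.63 to 0.08, adjusted p = 0.366), so the gap between the 96 h groups did not pass.

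Mael (ENSMUSG00000040629, chr1:166201201-166238747), a piRNA factor of germ cells, had 1 read in each of 2iL exp1_2 and exp2_1 and none in the other 2iL libraries. Its level was 4.68, 2.36 and 3.51 CPM without DOX, and with DOX 0.710, 2.19 and 6.12, the last in exp2_1. By reads the ratio to 2iL was 21.9 without DOX (39 reads against 2, 5.66 to 187; edgeR adjusted p = 0.0100) and with DOX its interval was 5.01 to 174 (26 against 2; adjusted p = 0.0200). Leaving out DOX exp2_1 ended the second call (adjusted p = 0.203), and so did the block of experiment and library number (adjusted p = 0.0803).

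Tdrkh (ENSMUSG00000041912, chr3:94413273-94434668), a tudor protein that helps trim piRNAs, rose from 0, 0.875, 0.612 and 0.368 CPM in 2iL to 4.10, 4.73 and 4.69 without DOX, a log2 fold change of 3.14 ± 0.99 (edgeR adjusted p = 0.0273). The no DOX libraries lay close together, but with so few reads leaving out any no DOX library, or any 2iL library but exp1_2, ended the call (adjusted p up to 0.0757). With DOX the libraries had 2.37, 0 and 7.65 CPM, the 0 in DOX exp1_2, and the change from 2iL had an adjusted p of 0.0603, and of 0.0277 without that library.

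Tex19.1 (ENSMUSG00000039329, chr11:121146143-121148319) takes part in keeping retrotransposons in check in germ cells and placenta, and is well known in ES cells. It had 534, 288, 331 and 318 CPM in 2iL, 226, 130 and 208 without DOX, and 257, 143 and 367 with DOX. It fell by 0.97 ± 0.30 on the log2 scale without DOX (edgeR adjusted p = 0.0246), or 1.95-fold. This rested on single libraries: without 2iL exp1_1, no DOX exp1_2 or no DOX exp2_2 the call was lost. With DOX, levels overlapped those of 2iL (-0.52 ± 0.30, adjusted p = 0.257). Tex19.2, a neighbour of similar sequence, ran from 0.729 to 10.5 CPM, and how reads shared by the pair were counted is not given, so the split between them is uncertain.

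Tdrd12 (ENSMUSG00000030491, chr7:35469098-35537745), a tudor protein with a helicase domain that acts in secondary piRNA production, was the 1 gene called between the 96 h groups. It had 69.4, 63.3, 60.9 and 50.8 CPM in 2iL, 50.02, 46.2 and 63.5 without DOX, and 27.9, 8.75 and 24.2 in libraries labelled DOX. All 3 libraries labelled DOX lay below the other 7, the lowest being DOX exp1_2. Tdrd12 fell by 1.33 ± 0.32 on the log2 scale with DOX against no DOX (edgeR adjusted p = 0.0254), a level 2.51-fold lower, and by 1.52 ± 0.31 against 2iL (adjusted p = 0.00164). Without DOX exp1_2 the first became -1.03 with an adjusted p of 0.0542. That call was also lost without no DOX exp1_1, no DOX exp2_2 or DOX exp2_1, within exp1 alone (-1.28, adjusted p = 0.266), in a fit of only those 2 groups and with the block of experiment and library number (adjusted p = 0.0652). The fall against 2iL held in every alternative run, with an adjusted p of 0.00308 without DOX exp1_2. Within exp1 the means were 48.1 CPM without DOX and 18.3 with DOX, and in exp2 63.5 and 24.2, from 1 library each.

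The other tested genes of this role passed in no comparison. Tdrd5, a tudor protein of piRNA bodies, had 0.665 and 0.583 CPM in the exp1 libraries of 2iL but 5.51 and 5.89 in those of exp2. Piwil2, a Piwi protein, had 0 to 1.47 CPM in 2iL, 0.586 to 4.30 without DOX and 0 to 8.02 with DOX. Mov10l1, the helicase that starts piRNA processing, had 0 to 1.84 CPM in 2iL, 0.878 to 3.22 without DOX and 3.37 to 6.63 with DOX, a log2 fold change of 2.72 from 2iL with DOX (edgeR adjusted p = 0.0509) for which DESeq2 gave an adjusted p of 0.0220. Tex15, a protein of transposon silencing, ran from 3.98 to 20.1 CPM. Piwil4 was kept but not tested, with 1 read in 2iL, 8 without DOX and 8 with DOX.

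**Figure D3:**
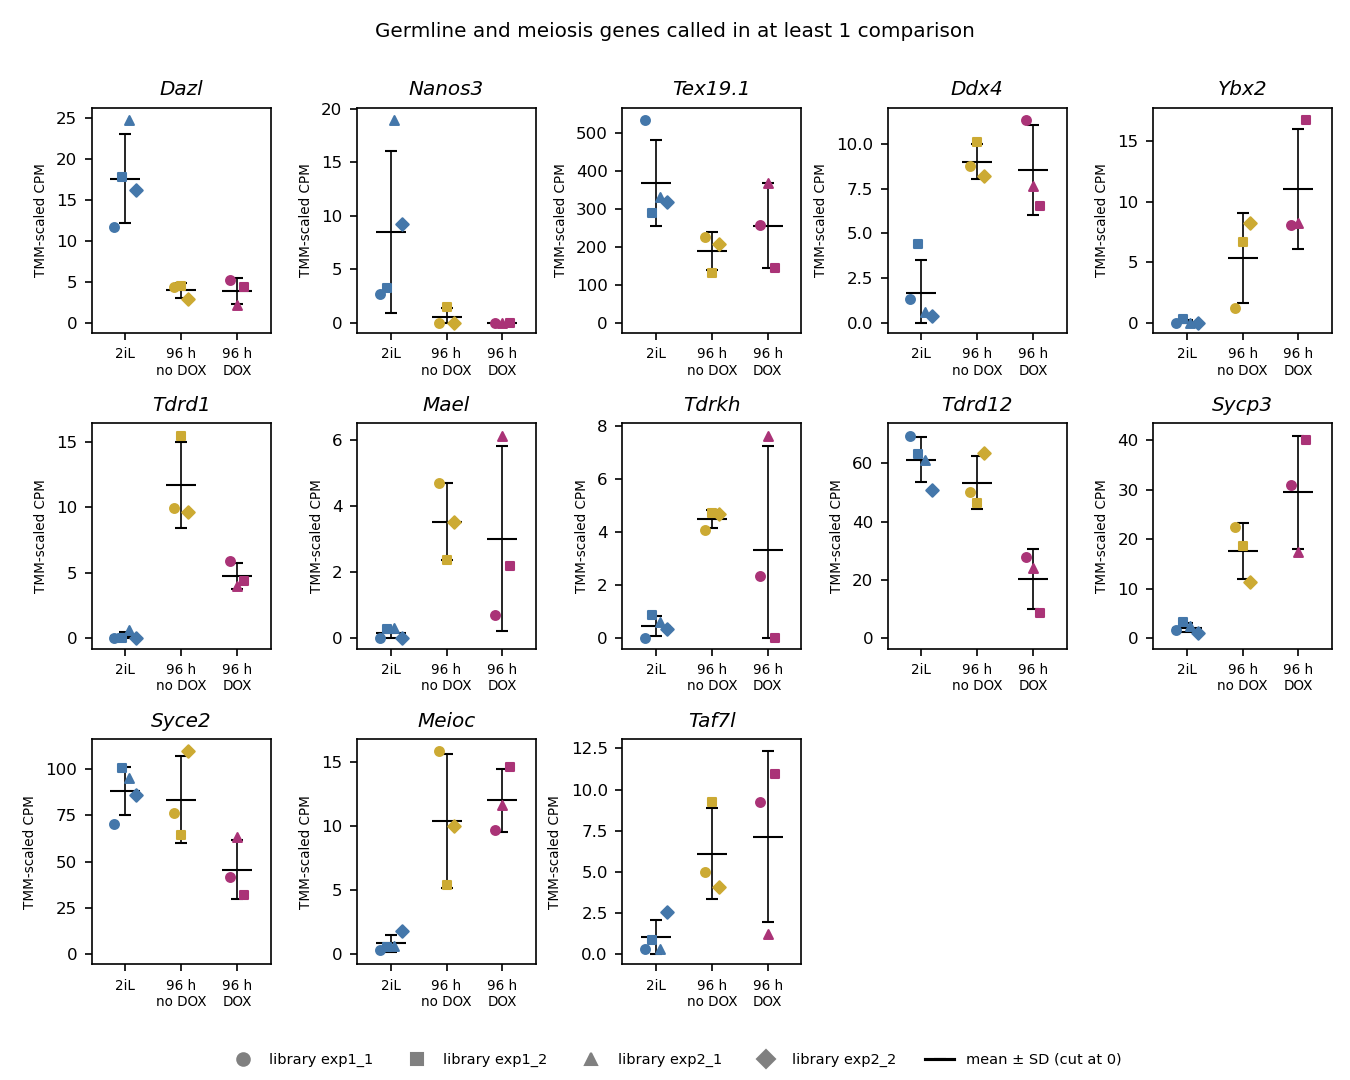
One panel for each gene called in at least 1 comparison, with the level in TMM-scaled CPM on the y axis and the 3 groups on the x axis; points are libraries and the bars the mean ± SD, cut at 0. Tdrd1, Ybx2 and Mael sit at or near 0 in all 4 libraries of 2iL, Dazl is highest there, and Tdrd12 is lowest in the 3 libraries labelled DOX.

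All 12 genes of the meiotic chromosome axis, synapsis and cohesin were kept and 7 tested, of which 1 rose without DOX. Sycp3 (ENSMUSG00000020059, chr10:88459569-88473236), a core protein of the axis, had 1.66, 3.21, 2.45 and 1.11 CPM in 2iL, 22.5, 18.7 and 11.4 without DOX, and 31.0, 40.1 and 17.4 with DOX. It rose 8.07-fold without DOX (log2 fold change 3.01 ± 0.45, edgeR adjusted p = 4.6e-05) and 13.4-fold with DOX (3.75 ± 0.45, adjusted p = 8e-06). Both held under every alternative run, and DOX against no DOX did not pass (0.74 ± 0.42, adjusted p = 0.429). Sycp3 overlaps Chpt1 on the other strand, and without a stated strand setting reads in the overlap cannot be told apart. Chpt1 itself had 3.85 ± 1.07 CPM in 2iL, 3.11 ± 1.49 without DOX and 9.60 ± 6.20 with DOX.

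Syce2 (ENSMUSG00000003824, chr8:84872111-84888221), a central element protein of the synaptonemal complex, was among the better covered genes, with 70.4, 101, 95.2 and 86.2 CPM in 2iL. It had 76.1, 64.2 and 110 CPM without DOX (mean 83.3 ± 23.5), which overlapped 2iL, and 41.4, 32.1 and 63.1 with DOX. Syce2 fell by 0.93 ± 0.27 on the log2 scale with DOX against 2iL (edgeR adjusted p = 0.0203), or 1.91-fold, with an adjusted p of 0.0635 without DOX exp1_2. The call was lost too without 2iL exp2_1 or DOX exp1_1, and within exp1 (adjusted p = 0.0524). DOX against no DOX gave -0.85 ± 0.28 (adjusted p = 0.125), with every library labelled DOX below every one without. Gcdh overlaps Syce2 on the other strand and had 26.1 ± 2.86 CPM in 2iL, 14.3 ± 2.80 without DOX and 13.5 ± 2.67 with DOX.

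Sycp1 and Sycp2, which encode the transverse filament and another axis protein, had too few reads for the main test. Sycp1 had 1 read over the 4 libraries of 2iL, 5, 11 and 5 reads without DOX, and 7, 8 and 14 with DOX. By reads that was 23.5 times the 2iL level without DOX (interval 3.79 to 974) and 44.6 times with DOX (7.40 to 1822). With all genes of at least 10 reads in the fit its edgeR adjusted p was 0.0427 without DOX and 0.0111 with DOX. With all genes of at least 1 read in the fit only the rise with DOX passed (adjusted p = 0.00914). Sycp2 had 2 reads in 2iL, 7, 25 and 1 without DOX (ratio 18.5, interval 4.73 to 159) and 10, 1 and 1 with DOX. Sycp2 passed in neither of these fits, and 1 library of each group at 96 h held most of its reads.

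The cohesin genes did not pass. Stag3, a meiotic cohesin subunit with clear expression in these cells, had 37.9 to 69.2 CPM in 2iL, 30.5 to 48.0 without DOX and 24.1 to 53.0 with DOX, a log2 fold change of -0.62 ± 0.29 without DOX (edgeR adjusted p = 0.157). Rec8 and Smc1b, 2 other meiotic cohesin subunits, ran from 0.293 to 7.65 and from 0.332 to 5.80 CPM over the libraries. Syce1, of the central element, ran from 3.80 to 22.6 CPM, its highest value in DOX exp1_2. Hormad2, which marks unpaired axes, had 0.332 to 8.47 CPM in 2iL, 2.05 to 4.30 without DOX and 0.710 to 1.46 with DOX, and its lower level with DOX did not pass (-1.79, adjusted p = 0.423). Hormad1, an axis protein, and Tex11, which promotes synapsis, had 25 and 29 reads in 2iL, 11 and 9 without DOX and 10 and 18 with DOX. Majin, which tethers telomeres to the nuclear envelope, had 14 reads in 2iL, 13 of them in exp1_2, then 17 without DOX and 0 with DOX.

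Of 6 genes of transcription and meiotic entry, 5 were tested, and 2 rose without DOX and 2 with DOX against 2iL. Meioc (ENSMUSG00000051455, chr11:102663716-102682237), whose protein keeps germ cells in meiotic prophase, had 0.332, 0.583, 0.612 and 1.84 CPM in 2iL, 15.8, 5.37 and 9.96 without DOX, and 9.71, 14.6 and 11.6 with DOX. The lowest library at 96 h was above the highest in 2iL. Meioc rose 12.1-fold without DOX (log2 fold change 3.60 ± 0.62, edgeR adjusted p = 0.000225) and 13.9-fold with DOX (3.80 ± 0.63, adjusted p = 0.00021), under every alternative run.

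Taf7l (ENSMUSG00000009596, chrX:134460118-134476490), a germ cell relative of a general transcription factor subunit, had 0.332, 0.875, 0.306 and 2.58 CPM in 2iL, 4.97, 9.24 and 4.10 without DOX, and 9.24, 10.9 and 1.22 with DOX. DOX exp2_1 fell inside the 2iL range. Its rise without DOX (2.58 ± 0.82, edgeR adjusted p = 0.0290) ended when 2iL exp1_1, exp1_2 or exp2_1 or no DOX exp1_1 or exp1_2 was left out, and with the experiment as a replicate block (adjusted p = 0.0617). With DOX (2.77 ± 0.84, adjusted p = 0.0267) it was lost without DOX exp1_2 (2.37, adjusted p = 0.0909), DOX exp1_1, 2iL exp1_1, 2iL exp1_2 or 2iL exp2_1, and with the experiment as a replicate block (adjusted p = 0.0791).

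Stra8, the retinoic acid target that starts meiosis, was the gene nearest to a rise with DOX. It had 2.99, 0.292, 1.22 and 0.368 CPM in 2iL, 0.293, 1.29 and 0.293 without DOX, and 5.45, 12.4 and 4.29 with DOX, the highest in DOX exp1_2. Every library labelled DOX lay above the other 7. DOX against no DOX gave a log2 fold change of 3.37 ± 1.02 (edgeR adjusted p = 0.0812), which fell short, while DESeq2 gave 3.47 with an adjusted p of 0.0165. Without DOX exp1_2 the edgeR value was 2.82 (adjusted p = 0.296). Dmrt1, a transcription factor of germ cells and testis, had 11.4 to 23.3 CPM in 2iL, 25.2 to 38.9 without DOX and 9.47 to 35.8 with DOX (log2 fold change without DOX 0.90 ± 0.39, adjusted p = 0.112). Sohlh2, a factor of early oocytes and spermatogonia, had 7.86 ± 4.39 CPM in 2iL, 6.38 ± 3.61 without DOX and 6.20 ± 1.91 with DOX, and Brdt, a testis bromodomain protein, had 12 reads in all. Of the remaining genes, Slc25a31, a testis ADP/ATP carrier, had 4 reads in 2iL, 22 without DOX and 16 with DOX, and Tex101, a sperm membrane protein, 12, 3 and 8.

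A further 42 germline genes that were not on the list were looked at for comparison, and 18 had enough reads to be tested. Without DOX against 2iL 3 rose and 4 fell, and the same count passed with DOX, while 0 passed between the 96 h groups by edgeR (2 at an unadjusted p under 0.05, and 1 by DESeq2, Rpl10l). Of all tested genes 11.5% rose and 8.9% fell without DOX, 9.84% and 6.83% with DOX against 2iL, and 2.16% and 0.945% with DOX against no DOX. The risers were Six6os1 and Syce3, of the synaptonemal complex, and Ddx25, a testis RNA helicase. They too entered the test only through the groups at 96 h, with 44, 2 and 23 reads over the 2iL libraries. Six6os1 went from 3.47 ± 2.08 CPM in 2iL to 29.4 ± 1.98 without DOX and 28.9 ± 6.81 with DOX (log2 fold change 3.06 ± 0.40 without DOX, edgeR adjusted p = 9e-06). Ddx25 went from 1.89 ± 1.00 to 18.6 ± 11.5 and 7.13 ± 2.04 CPM, and Syce3 from 0.149 ± 0.173 to 3.08 ± 1.09 and 2.54 ± 1.47.

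The genes that fell were Fkbp6, Rec114, Tex13b and Rpl10l. Fkbp6, a piRNA chaperone, went from 67.8 ± 17.5 CPM in 2iL to 13.8 ± 7.01 without DOX and 8.95 ± 4.24 with DOX. Rec114, which helps make meiotic breaks, went from 34.1 ± 8.25 to 11.3 ± 4.08 and 10.7 ± 3.75 CPM. Tex13b had 7.97 ± 4.33, 0.898 ± 0.491 and 0.881 ± 0.775 CPM, and Rpl10l, a near copy of Rpl10 whose reads may be split with it, 62.7 ± 5.18, 14.5 ± 5.48 and 32.4 ± 16.2. The call of Tex13b without DOX was lost without 2iL exp2_1, no DOX exp1_1 or no DOX exp1_2, and with DOX without 2iL exp2_1 or DOX exp2_1. With DOX the call of Ddx25 was lost without 2iL exp1_1, 2iL exp2_1 or DOX exp2_1, and that of Syce3 without 2iL exp1_1, 2iL exp2_2, DOX exp1_1 or DOX exp1_2. The call of Rpl10l with DOX was lost without any one 2iL library, DOX exp1_1 or DOX exp2_1.

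Of 25 genes known to take part in silencing germline genes or, for the Tet enzymes, in removing DNA methylation, all 25 were tested. Without DOX against 2iL, 5 rose and 2 fell; with DOX against no DOX, 3 rose and 1 fell; with DOX against 2iL, 8 rose and 2 fell. The down share without DOX (2 of 25) was near that of all tested genes (8.9%), and the other shares of all genes were 11.5% up in that comparison, 2.16% up and 0.945% down with DOX against no DOX, and 9.84% and 6.83% with DOX against 2iL. Dnmt3b went from 195, 177, 171 and 160 CPM in 2iL to 1921, 1591 and 1964 without DOX and 1092, 663 and 1018 with DOX, and Dnmt3a from 29.2, 39.4, 29.4 and 22.1 to 216, 286 and 276, then 936, 708 and 567. Dnmt3b rose by 3.38 ± 0.24 on the log2 scale without DOX (edgeR adjusted p = 6.36e-09), and Dnmt3a by 3.11 ± 0.25 (adjusted p = 2.47e-08). In libraries labelled DOX Dnmt3a was higher than without DOX (1.51 ± 0.26, adjusted p = 0.00155) and Dnmt3b lower (-0.98 ± 0.25, adjusted p = 0.0304, lost without 2iL exp2_1, 2iL exp2_2, no DOX exp1_1, no DOX exp2_2 or DOX exp2_1).

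Uhrf1, which brings the maintenance methyltransferase to DNA, fell from 169 ± 38.7 CPM in 2iL to 87.6 ± 17.2 without DOX and 78.2 ± 3.94 with DOX. Tet2, a demethylase, had 28.1 ± 11.9 CPM in 2iL, 2.59 ± 0.472 without DOX and 25.5 ± 9.95 with DOX, and Tet1 131 ± 28.3, 96.0 ± 31.1 and 289 ± 181. The higher Tet1 with DOX rested in part on DOX exp1_2 (499 CPM) and was also lost without no DOX exp1_1 or no DOX exp2_2 ( log2 fold change against no DOX 1.58, and 0.94 with an edgeR adjusted p of 0.0592 without it), while Tet2 held (3.25 ± 0.49, adjusted p = 0.000511, and 3.00 with an adjusted p of 0.00124 without it). The PRC1.6 genes Mga, Max, L3mbtl2, Pcgf6 and E2f6 passed in no comparison. Yaf2, also of PRC1.6, rose with DOX against 2iL (log2 fold change 1.61 ± 0.53, edgeR adjusted p = 0.0407). Mga had 160 ± 21.9, 144 ± 18.5 and 124 ± 24.6 CPM. E2f6 was higher without DOX than in 2iL (log2 fold change 0.95 ± 0.41, edgeR adjusted p = 0.119), and L3mbtl2 was lower (-0.60 ± 0.25, adjusted p = 0.104). These values do not show that either gene was unchanged. Tet3, Ehmt1 and Dnmt3l rose without DOX, to 12.9 ± 0.245, 135 ± 35.3 and 287 ± 89.3 CPM from 3.48 ± 1.96, 68.5 ± 11.8 and 139 ± 48.4. The call of Dnmt3l was lost without 2iL exp2_1 or no DOX exp2_2. With DOX against 2iL, Dnmt3a, Dnmt3b, Dnmt3l, Tet1, Tet3, Ehmt1, Ehmt2 and Yaf2 rose and Dnmt1 and Uhrf1 fell. Of these, Dnmt3a, Dnmt3b, Tet3 and Uhrf1 kept the call whichever library was left out, and Tet1 (0.49, adjusted p = 0.211), Yaf2 (1.11, adjusted p = 0.215) and Ehmt1 (0.64, adjusted p = 0.0861) lost it without DOX exp1_2. Among the 10 libraries left out in turn, the call was lost for 7 with Dnmt1, 6 with Ehmt1, 5 each with Dnmt3l, Ehmt2 and Yaf2, and 2 with Tet1 (2iL exp2_1 and DOX exp1_2).

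**Figure D4:**
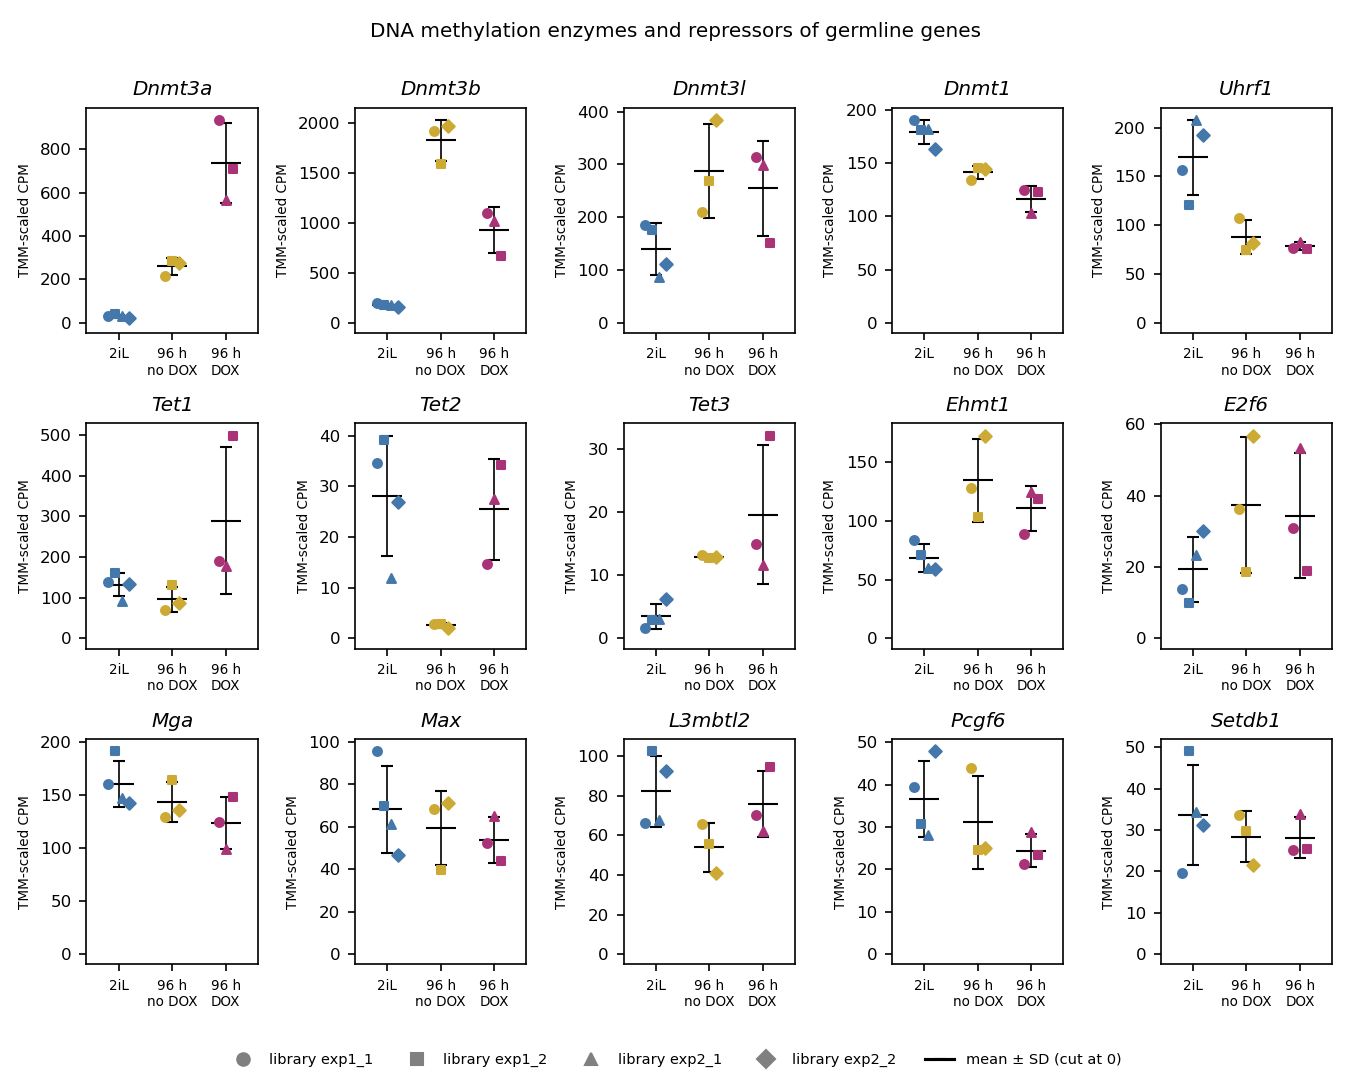
TMM-scaled CPM by group for Dnmt genes, Uhrf1, Tet demethylases, some PRC1.6 genes (E2f6, Mga, Max, L3mbtl2 and Pcgf6, but not Yaf2), and Ehmt1 and Setdb1. Points are libraries and bars the mean ± SD. Dnmt3b is highest without DOX (1591 to 1964 CPM) and Dnmt3a with DOX (567 to 936 CPM), while Mga overlaps between the 3 groups. L3mbtl2 without DOX (41.0 to 65.5 CPM) lies below 2iL (66.5 to 102 CPM), a difference that did not pass.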

How the data were processed

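The authors deposited counts of reads per gene for 10 libraries of polyA RNA made by 3′ digital gene expression, per the labels' protocols, aligned with STAR 2.6.0a to mm10 and counted with HTSeq, per the submitters' processing notes. The annotation release, strand setting and treatment of duplicate reads are not stated in the sources used. HTSeq lines that name no gene (62.7% to 68.4% of all reads, mostly reads with several alignments) were left out, so genes with close copies lose reads. A deposited CPM table was not used. Symbols matched 30934 of 31053 IDs, and positions are from GENCODE vM21 (GRCm38/mm10).

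The counts were scaled by TMM (factors 0.911 to 1.09), filtered with filterByExpr by group (minimum count 10, 11215 genes) and fitted with edgeR 4.0.16 in R 4.3.3 (quasi-likelihood, robust) over all 10 libraries. Calls have a Benjamini-Hochberg adjusted p below 0.05 over all tested genes; DESeq2 1.42.0 was an alternative. SE values come from the fold change and the F statistic. Sums over gene lists are CPM without TMM. For genes with 1 to 3 reads in a group the ratio of summed reads is given with an exact 95% interval; against 0 reads the floor was 3. The scripts were tested on simulated counts. The members, the other lists and the rule for genes given in full (listed genes called in at least 1 comparison, the others by range; unlisted genes by counts, with values for those called) were chosen with earlier results of these data known. Other genes given with values, such as Stra8, were chosen after their values were seen.

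Titles name a shared experiment, so fits with the experiment as a block were run. Deviations from group means correlated by -0.154 to 0.205 within an experiment (17 pairs) and by -0.179 to 0.133 between experiments (16 pairs).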

Additional observations from a re-analysis of the deposited data

Results flagged for a closer look

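In the 2iL group, 27 sets of 4 levels were examined for a library far from the others, and 2 were found. Chance flags about 1 in 20 sets of continuous values, a rate that does not hold for sets with 3 levels of 0 and a single low one, which are flagged by construction; both sets found are of this kind. Tdrd1 had 0.612 CPM in 2iL exp2_1 and no read in the other 3 libraries. Ybx2 had 0.292 CPM in 2iL exp1_2 and no read in the other 3. The first value rests on 2 reads and the second on 1.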

How the results depend on the processing

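No call of a listed gene changed direction in any of the alternatives run (RLE scaling, DESeq2, filters of at least 10 reads or 1 read, the 2 compared groups only, each library left out, exp1 alone and both blocks). Sycp3, Tdrd1 and Meioc passed in both comparisons with 2iL under every alternative, and Ybx2 under every one that tested it (without DOX it was not tested in the fit of only the 2 compared groups). The number of listed genes tested was 27, 26 in exp1 alone and 26 to 29 with single libraries left out. It was 36 with the filter of at least 10 reads and 40 with that of at least 1 read. With only the 2 compared groups it was 22 without DOX against 2iL, 24 with DOX against no DOX and 21 with DOX against 2iL. Counts of calls across these fits thus have different bases. The number rising without DOX against 2iL fell from 8 to 5 in exp1 alone and the number falling from 3 to 0 there. With single libraries left out the number falling was 1 to 3 and the number rising 6 to 9, the 9 with Sycp1, which the filter on low counts otherwise leaves out. Rising with DOX against 2iL was 7, 10 by DESeq2 (with Stra8, Mov10l1 and Tdrkh), 5 in exp1 alone and 5 to 8 with single libraries left out. DESeq2 also called more of all genes there, with 11.8% rising beside 9.84% in the main fit. Falling with DOX against 2iL was 4, and 1 in exp1 alone, with 2 to 4 on leaving out single libraries. With DOX against no DOX, DESeq2 gave 1 riser (Stra8) in place of 0. The 1 falling gene there (Tdrd12) became 0 with only the 2 compared groups, in exp1 alone, and with the block of experiment and library number, and was 0 to 1 when single libraries were left out. The exp1 fit has only 6 libraries, and Dazl (-1.73, adjusted p = 0.0821) and Ddx4 (1.69, adjusted p = 0.156) missed the threshold without DOX there alone.

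Over all genes, the 348 called with DOX against no DOX became 212 with only the 2 groups, 563 with DESeq2, 564 with every gene of at least 1 read, 108 in exp1 alone and 159 with the block of experiment and library number, and 161 to 358 when single libraries were left out. The 2289 called without DOX against 2iL became 1226 and the 1870 with DOX against 2iL became 926 in exp1 alone. With the experiment as a replicate block, 7 listed genes rose and 2 fell without DOX against 2iL, where 2244 of all genes were called. In that fit 0 listed genes rose and 1 fell with DOX against no DOX (347 of all genes called). With DOX against 2iL, 6 rose and 4 fell (1815 of all genes called). Genes with under 10 reads per group, such as Brdt and Piwil4, are below what this depth can test.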
